A study of Mus musculus with 4 samples.

Results

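A set of 10 genes put forward as wider candidates for imprinting by H3K27me3 was followed in mouse early blastocysts, obtained either through in vitro fertilization (IVF) or through nuclear transfer from somatic cells (SCNT). They are Otx2, Epas1, Etv6, Bbx, Mbnl2, Tle3, Rbms1, Runx1, Enc1 and Clic6, chosen by name. All 10 were found among the 23235 gene symbols of the files, and 9 had a mean of at least 1 FPKM (fragments per kilobase of transcript, scaled to the mapped total) and could be tested. Clic6 was below that limit. Each group had 2 libraries, each of 6 embryos taken 96 hours after fertilization or activation. For IVF, Xist knockout oocytes of 129S1/Svj background met wild-type CAST/EiJ sperm. SCNT embryos received nuclei of embryonic fibroblasts from a cross of 129S1/SvImj females carrying the Xist knockout with CAST/EiJ males, so that the donor cells were heterozygous for the knockout. The recipient oocytes were from B6D2F1/J mice, a strain that the IVF embryos did not share. Both groups therefore carry the Xist knockout, and the SCNT columns also bear the name of the histone demethylase gene Kdm4d, which the labels leave unexplained. Neither the sex of the embryos nor the number of donor cell preparations is given in the sources used here.

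H3K27me3 is a repressive histone mark laid down by Polycomb repressive complex 2. In the oocyte it covers broad domains, and at a small set of genes it keeps the maternal allele silent in the early embryo without DNA methylation. A somatic nucleus does not pass through the oocyte's growth, and the title of the series concerns whether this form of imprinting is defective after nuclear transfer. The values here are totals per gene and do not separate the parental alleles, so they show levels and not which allele was read. In pooled whole embryos, fewer cells of a type and less RNA per cell cannot be told apart either.

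On the scale of log2(FPKM + 1), Mbnl2, Tle3 and Rbms1 had the largest SCNT minus IVF differences of the 10 genes. By the ratio of mean FPKM, Etv6 (1.60) stood slightly above Rbms1 (1.59) and Mbnl2 (1.57). The promoter letters of Mbnl2, Tle3 and Rbms1 are shown to let the regions be compared with each other. RefSeq (GRCm38.p6, not the build of the deposited values) gave windows for 6 of the 10 genes: Otx2, Etv6, Mbnl2, Tle3, Rbms1 and Runx1. The bases printed are the 250 before an annotated start, 5′ to 3′ on the gene's strand, with each CpG in capitals. The Mbnl2 window lies at chr14:120275419-120275668 (plus strand), the Tle3 window at chr9:61372116-61372365 (plus strand), and the Rbms1 windows at chr2:60881439-60881688 (minus strand) and chr2:60963205-60963454 (minus strand).
Mbnl2: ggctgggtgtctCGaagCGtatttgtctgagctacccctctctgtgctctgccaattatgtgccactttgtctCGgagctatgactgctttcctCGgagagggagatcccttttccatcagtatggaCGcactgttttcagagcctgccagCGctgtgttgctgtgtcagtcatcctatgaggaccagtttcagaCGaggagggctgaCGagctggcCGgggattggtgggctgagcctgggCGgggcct
Tle3: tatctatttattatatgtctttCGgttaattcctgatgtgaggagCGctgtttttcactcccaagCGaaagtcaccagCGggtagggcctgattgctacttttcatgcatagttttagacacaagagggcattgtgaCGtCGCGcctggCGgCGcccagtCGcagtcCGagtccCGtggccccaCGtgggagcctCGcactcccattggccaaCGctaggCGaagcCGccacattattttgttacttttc
Rbms1, window 1: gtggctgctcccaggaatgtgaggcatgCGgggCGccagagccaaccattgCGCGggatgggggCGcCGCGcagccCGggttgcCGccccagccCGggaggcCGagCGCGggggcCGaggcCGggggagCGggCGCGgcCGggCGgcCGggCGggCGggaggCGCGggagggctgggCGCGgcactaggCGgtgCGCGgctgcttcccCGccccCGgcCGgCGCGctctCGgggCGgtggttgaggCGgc
Rbms1, window 2: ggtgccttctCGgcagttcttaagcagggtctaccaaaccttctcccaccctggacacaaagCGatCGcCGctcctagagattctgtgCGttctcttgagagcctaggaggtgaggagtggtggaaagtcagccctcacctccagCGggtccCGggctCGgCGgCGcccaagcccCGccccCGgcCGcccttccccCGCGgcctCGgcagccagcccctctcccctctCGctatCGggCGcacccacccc
The Mbnl2 window held 10 CpG, that of Tle3 held 17, and those of Rbms1 held 38 and 19. The median over all 32851 windows of the same length was 6. The ratio of observed to expected CpG was 0.50 for Mbnl2, 0.99 for Tle3, and 0.93 and 0.70 for Rbms1, against a median of 0.37. CpG density is given because Polycomb domains are known to lie often at CpG-rich promoters. The windows of the 3 genes did not share a common density, since that of Mbnl2 stood at the 62nd percentile of CpG number and the denser window of Rbms1 at the 98th. The pair of Runx1 windows held 27 and 2 CpG, the 4 of Otx2 between 6 and 14, and that of Etv6 held 16. Which of several starts was in use cannot be read from totals per gene.

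Exact letter matches on both strands were counted in the 11 windows of the 6 genes, and no motif contains another. GGGCGG occurred in 4 of the 11 windows (32.7% of all windows) and CCAAT in 5 (33.8%). GAGAG occurred in 6 (54.7%), CACGTG in 2 (6.02%) and TATAAA in 1 (12.4%). These are matches of letters, and several windows belong to the same gene.

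FPKM summed to between 933167 and 985197 per library, and 10802 to 10923 genes reached 1 FPKM. Absolute depth cannot be read from FPKM, so the counting error of single values cannot be given here. Xist, the gene knocked out, varied from 1.09 to 13.9 FPKM within IVF and from 3.33 to 4.13 FPKM within SCNT, and since the deleted part is not stated these values do not check the genotype. All 15 listed trophectoderm markers were tested, among them Cdx2 at 20.0 and 21.7 FPKM in IVF, and the pluripotency gene Pou5f1 stood at 112 and 128 FPKM there. Of 17 fibroblast markers 2 reached a mean of 1 FPKM, and 3 (Twist2, Fap and S100a4) were listed at 0 in all libraries. Of 9 cumulus and granulosa markers none did, and 3 were listed at 0 throughout. The labels do not say whether the libraries of a group stem from separate parents or days. The p-values then cover the spread among these 4 libraries alone, and that spread may be technical.

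Among the 10 genes, Epas1 was the highest in every library, with a mean of 36.3 ± 5.67 FPKM in IVF (SD, n = 2), at the 89th percentile of all symbols. In IVF it was followed by Rbms1 (10.2 ± 1.72), Mbnl2 (8.12 ± 0.137), Bbx (6.91 ± 1.42), Tle3 (4.82 ± 1.41), Otx2 (4.59 ± 1.48), Runx1 (3.25 ± 0.304) and Etv6 (1.28 ± 0.486). The ranges of Tle3 and Otx2 overlapped, while the other adjacent genes of this order had separate ranges in IVF. Enc1, with a mean of 10.7 FPKM but values from 1.38 to 20.0 FPKM, lay below Epas1 and overlapped Rbms1. In SCNT the order was Epas1, Rbms1, Mbnl2, Tle3, Bbx, Runx1, Otx2 and Etv6 with Enc1 again spread across several places. There Tle3 overlapped Bbx, Runx1 overlapped Otx2 and Otx2 overlapped Etv6. Clic6 was last in both groups.

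**Figure D1:**
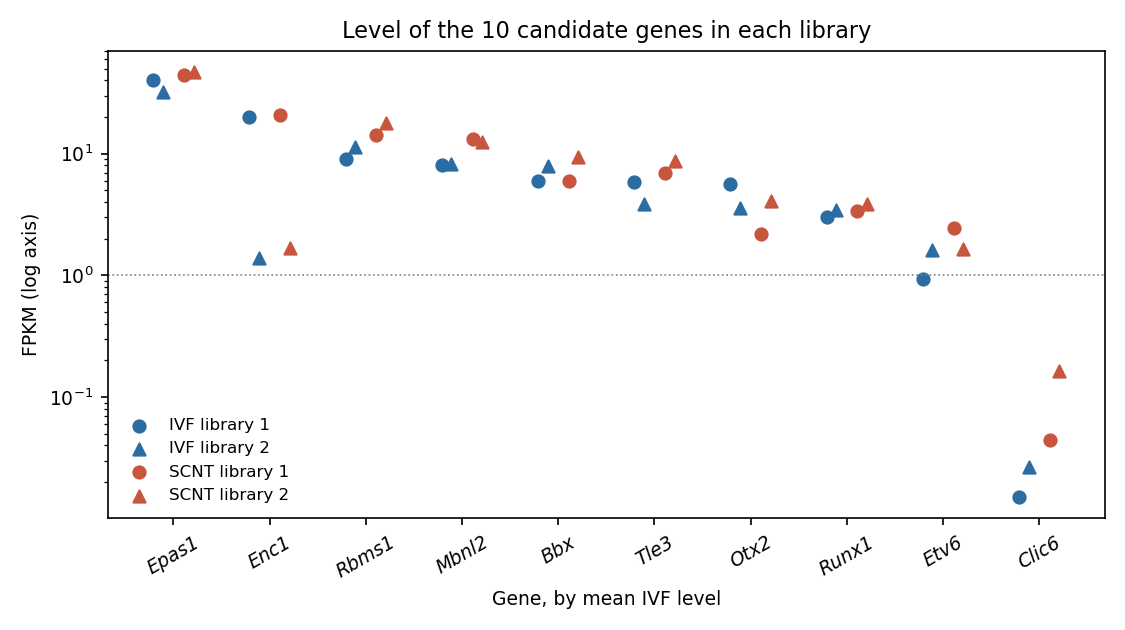
FPKM (log axis) of each candidate gene in the IVF (blue) and SCNT (red) libraries, library 1 as circles and library 2 as triangles, with the genes in the order of their mean IVF level. The dotted line marks 1 FPKM, the least mean level for a test. Epas1, Etv6, Mbnl2, Tle3, Rbms1 and Clic6 show all SCNT points above all IVF points. The gap is only 0.0125 FPKM for Etv6 and 0.0171 FPKM for Clic6. Enc1 separates by library number.

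None of the 9 tested genes passed an adjusted p under 0.05 over all 11039 tested genes with limma, where 0.127% of all genes did. At an unadjusted p under 0.05, 2 of the 9, Mbnl2 and Rbms1, were higher in SCNT and none was lower, beside shares of 4.25% higher and 2.84% lower among all tested genes. Without IVF library 1 the count was 1, and the gene was Tle3 (limma unadjusted p = 0.0247), neither Mbnl2 (0.0695) nor Rbms1 (0.158). Without IVF library 2 it was 1, Rbms1 (0.0377), and without SCNT library 1 or SCNT library 2 it was 0. Both SCNT values lay above both IVF values for 5 of the 9 (Epas1, Etv6, Mbnl2, Tle3 and Rbms1), beside 18.3% of all tested genes. For none of the 9 did both lie below, beside 15.1%. With 2 libraries per group an exact permutation test of a single gene cannot give a two-sided p below 0.333. The estimate was above 0 for 8 of the 9 and below 0 for Otx2, and 52.2% of all genes had an estimate above 0. The median difference was 0.33 over the 9 genes and 0.01 over all tested genes, on the scale of log2(FPKM + 1) as SCNT minus IVF, which understates changes of low genes. The genes were chosen with earlier results of these data known, so these counts describe them and test nothing about the list.

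**Figure D2:**
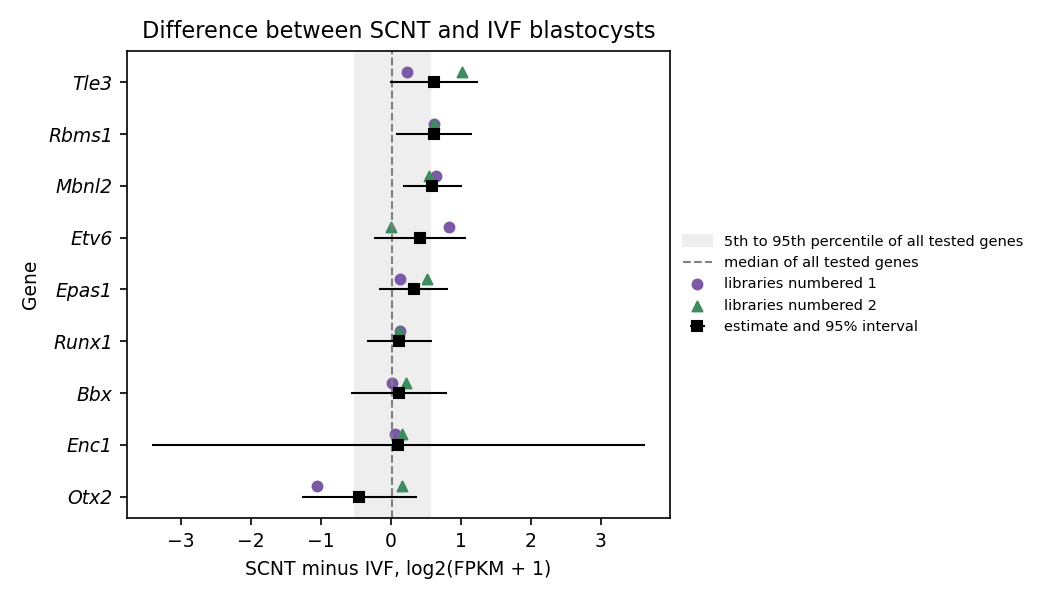
SCNT minus IVF difference on the log2(FPKM + 1) scale for the 9 tested genes, as the limma estimate with its 95% interval (black) and as the difference between libraries numbered 1 (violet circles) and numbered 2 (green triangles). The grey band spans the 5th to the 95th percentile of all tested genes (-0.51 to 0.56); the estimates of Mbnl2, Rbms1 and Tle3 lie just beyond its upper edge, and the interval of Enc1 runs from -3.41 to 3.63.

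The RNA-binding genes came first by the size of the difference relative to its error. Mbnl2 encodes a zinc-finger protein that controls alternative splicing. It stood at 8.03 and 8.22 FPKM in the IVF libraries against 13.1 and 12.4 FPKM in the SCNT libraries. The libraries of each group lay close together, and the groups were apart. The ratio of means was 1.57, and the log2 difference was 0.59 ± 0.16 (SE), with a 95% interval of 0.17 to 1.01 (limma unadjusted p = 0.0151, adjusted p = 0.506). It was 0.64 between the libraries numbered 1 and 0.54 between those numbered 2, and lay between 0.55 and 0.63 whichever library was left out. Without 1 library the unadjusted p ran from 0.0558 to 0.119.

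Rbms1 encodes a protein that binds single-stranded nucleic acids. Its levels were 8.97 and 11.4 FPKM in the IVF libraries against 14.3 and 18.0 FPKM in the SCNT libraries. The highest IVF value stayed below the lowest SCNT value, and in both groups library 2 had the higher level. The ratio was 1.59 and the difference 0.62 ± 0.21, with an interval of 0.07 to 1.16 (limma unadjusted p = 0.0332, adjusted p = 0.619). Within each library number the difference came out alike, at 0.62 and 0.61. Leaving out a library gave 0.46 to 0.77.

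None of the 4 tested relatives of these genes, listed by family, had an unadjusted p under 0.05. Among all tested genes 4.25% were higher and 2.84% lower at that threshold, so so short a list shows little. Mbnl1, a close paralogue of Mbnl2, had 0.0997 and 0.279 FPKM in the IVF libraries against 0.655 and 0.413 FPKM in the SCNT libraries, below the limit for a test. Mbnl3 had 4.35 and 5.29 FPKM in IVF against 5.23 and 5.92 FPKM in SCNT (difference 0.18 ± 0.19). Mbnl2 was thus the most abundant of the 3 Mbnl genes in every library, per length. Celf1, a splicing regulator that often opposes Mbnl proteins, had a difference of 0.03 and Celf2 one of -0.42. Rbms2 was at 9.22 and 8.86 FPKM in the IVF libraries against 7.92 and 8.79 FPKM in the SCNT libraries, a difference of -0.10 ± 0.17, and Rbms3 stayed below 0.02 FPKM. Whether members differ from their relatives was not tested.

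The 6 genes Tle3, Epas1, Etv6, Otx2, Runx1 and Bbx encode regulators of transcription. Tle3, a corepressor of the Groucho family that is recruited by DNA-binding factors, had 5.82 and 3.83 FPKM in IVF against 6.98 and 8.76 FPKM in SCNT. The groups did not overlap, but the IVF libraries differed from each other by more than the gap between the groups. The difference was 0.62 ± 0.24, with an interval from -0.004 to 1.25 (limma unadjusted p = 0.0510, adjusted p = 0.709). It was 0.23 between the libraries numbered 1 and 1.02 between those numbered 2, and 0.37 to 0.87 with a library left out. Of its family, Tle4, Tle6 and Aes had differences of -0.002, -0.01 and 0.02, and Tle1 one of -0.41 (2.63 and 2.07 FPKM in IVF against 1.53 and 1.50 FPKM in SCNT). None of the 4 tested relatives had an unadjusted p under 0.05, beside 4.25% higher and 2.84% lower among all tested genes.

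Epas1 encodes HIF-2 alpha, the oxygen-regulated subunit that pairs with ARNT to switch on hypoxia genes. Its level was 40.3 and 32.3 FPKM in IVF against 44.4 and 46.9 FPKM in SCNT. Both SCNT values were above both IVF values, by a small margin at IVF library 1. The difference was 0.33 ± 0.19, with an interval of -0.16 to 0.82 (limma unadjusted p = 0.146, adjusted p = 0.898), 0.13 between libraries numbered 1 and 0.52 between those numbered 2. Of the 8 listed genes of the HIF machinery 6 were tested, none with an unadjusted p under 0.05. The shares among all tested genes were 4.25% higher and 2.84% lower. Estimates of these 6 genes were higher for 1 and lower for 5, with a median of -0.09. Both SCNT values lay below both IVF values for 3 of the 6 and above for 0, beside 15.1% and 18.3% of all tested genes. Arnt itself had 9.87 and 7.87 FPKM in IVF against 6.19 and 6.21 FPKM in SCNT (difference -0.45 ± 0.19). Egln1, the oxygen sensor with the highest level of the list, had a difference of 0.13 ± 0.21.

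Of 15 listed targets of the HIF factors, 12 were tested, with 8 estimates higher, 4 lower and a median of 0.07. Ndrg1, a stress- and hypoxia-responsive gene, was the only 1 of the 12 with an unadjusted p under 0.05, beside 4.25% higher and 2.84% lower among all tested genes. It stood at 38.8 and 50.1 FPKM in the IVF libraries against 80.6 and 76.7 FPKM in the SCNT libraries, a difference of 0.82 ± 0.20 (limma adjusted p = 0.453). Both SCNT values lay above both IVF values for 1 of the 12 and below for 2, beside 18.3% and 15.1% of all tested genes. Those below were the glucose transporter gene Slc2a1 and the lactate dehydrogenase gene Ldha, with differences of -0.59 and -0.37. The targets did not share a direction.

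Etv6 encodes a repressor of the ETS family that is needed for blood formation. Its levels were 0.933 and 1.62 FPKM in the IVF libraries against 2.44 and 1.63 FPKM in the SCNT libraries. The groups were separated by 0.0125 FPKM, and they overlapped after median-ratio scaling or with short RNA genes left out. The difference was 0.42 ± 0.26, with an interval of -0.24 to 1.08 (limma unadjusted p = 0.162). It was 0.83 between the libraries numbered 1 and 0.01 between those numbered 2. Etv3, Etv5 and Ets2, the tested ETS genes of the list, had differences of 0.25, 0.06 and 0.12.

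Otx2, a homeobox gene of the epiblast and later of the anterior brain, was the only member with a lower estimate. It had 5.64 and 3.55 FPKM in IVF against 2.198 and 4.08 FPKM in SCNT. The groups overlapped, because SCNT library 2 lay between the IVF values. The difference was -0.45 ± 0.32, with an interval of -1.26 to 0.37 (limma unadjusted p = 0.219), and it changed sign between library numbers, from -1.05 to 0.16. Its relatives Otx1 and Crx stayed below 1 FPKM in every library.

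Runx1 and Bbx were nearly level between the groups. Runx1, a master regulator of blood stem cell formation, had 3.04 and 3.47 FPKM in IVF against 3.41 and 3.84 FPKM in SCNT (difference 0.12 ± 0.18, interval -0.34 to 0.59). In both groups library 2 was the higher, and the difference was 0.13 and 0.12 within the library numbers. Its DNA-binding partner Cbfb differed by 0.10 ± 0.19, and its paralogues Runx2 and Runx3 stayed under 0.1 FPKM. Bbx, which encodes an HMG-box transcription factor, had 5.91 and 7.92 FPKM in IVF against 5.98 and 9.36 FPKM in SCNT (difference 0.11 ± 0.27, interval -0.57 to 0.80). The intervals of both genes include differences as large as the estimates of Tle3 for Bbx and of Etv6 for Runx1, so no claim of equal levels can be made.

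Enc1 and Clic6 are the members outside transcription and RNA binding. Enc1 encodes an actin-associated protein with BTB and kelch domains. Its levels were 20.0 and 1.38 FPKM in the IVF libraries against 20.8 and 1.67 FPKM in the SCNT libraries. Library 1 was high and library 2 low in both groups, with ratios of 14.5 in IVF and 12.4 in SCNT. The group difference was 0.11 ± 1.38 (interval -3.41 to 3.63), against 0.05 between libraries numbered 1 and 0.17 between those numbered 2. Leaving out 1 library moved it from -1.46 to 1.68, so neither its sign nor its size can be given from these libraries.

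Such a gap between libraries of a group was rare. A fold of at least 10 separated the libraries for 106 tested genes in IVF (0.960%) and 98 in SCNT (0.888%). In 41 genes, Enc1 among them, library 1 was at least 10-fold higher in both groups, and in 51 genes library 2 was. The summed level of the 17 fibroblast markers was also higher in library 1, at 5.60 and 2.77 FPKM in IVF against 10.7 and 2.14 FPKM in SCNT. Of that list only Col1a1 and Tagln reached a mean of 1 FPKM, and Twist2, Fap and S100a4 were at 0. The part of these genes or of the library number in the values of Enc1 was not tested.

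**Figure D3:**
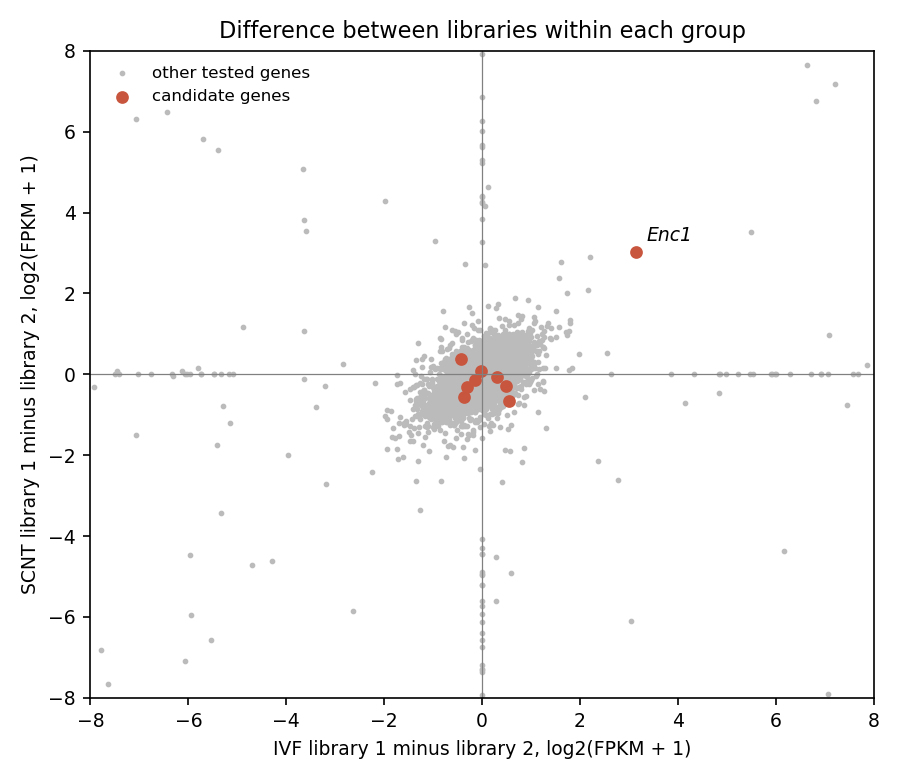
Difference between library 1 and library 2 on the log2(FPKM + 1) scale in IVF (horizontal axis) and in SCNT (vertical axis) for each tested gene, with candidate genes in red. Enc1 lies at 3.14 and 3.03, far from the other candidate genes; 18 genes fall outside the axes.

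Clic6, of the chloride intracellular channel family, had 0.0151 and 0.0269 FPKM in the IVF libraries against 0.0439 and 0.163 FPKM in the SCNT libraries. The SCNT values were the higher ones, but all 4 were near the floor of the table, and no fold or test is given for them. Its relatives Clic1, Clic3 and Clic4 were abundant, and their differences were 0.01, 0.39 and -0.05. Clic3 owed its estimate to SCNT library 2, at 111 FPKM against 52.7 to 58.8 FPKM in the other libraries.

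**Figure D4:**
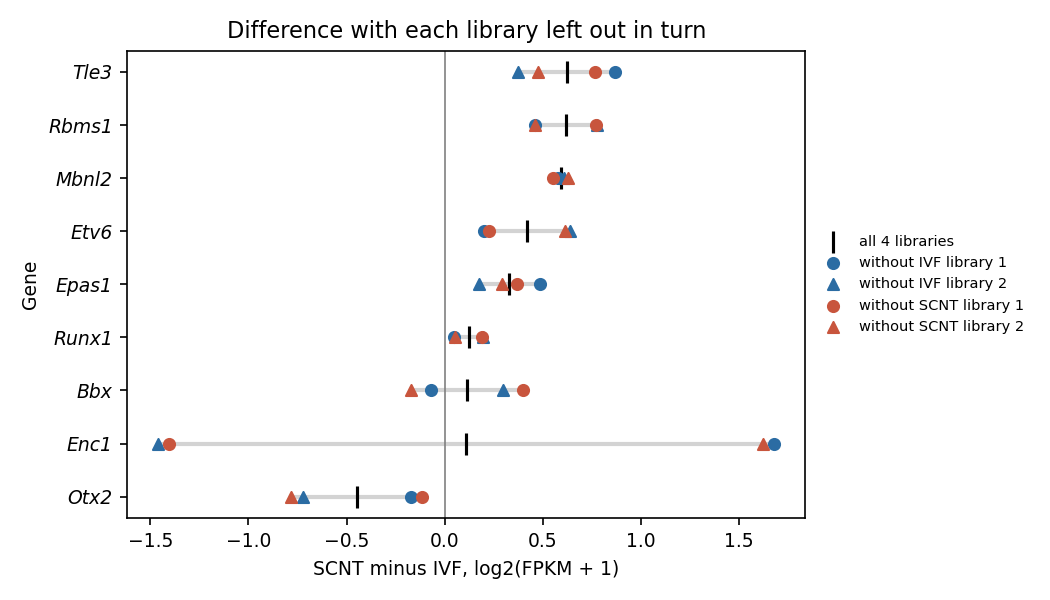
SCNT minus IVF difference on the log2(FPKM + 1) scale with all 4 libraries (black bar) and with each library left out in turn (symbols), for the 9 tested genes. Mbnl2 moves least, between 0.55 and 0.63, while Bbx and Enc1 cross 0.

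Runx1 and Clic6 are next to each other on chromosome 16 in the RefSeq table, and Bbx lies elsewhere on the same chromosome. Otx2 and Mbnl2 are on chromosome 14, and the others are on chromosomes 17 (Epas1), 6 (Etv6), 9 (Tle3), 2 (Rbms1) and 13 (Enc1). Of the nearest protein-coding genes, 2 on each side, 36 were distinct and not candidates themselves, and 21 of these were tested. Their estimates were higher for 12 and lower for 9, with a median of 0.01. Both SCNT values lay above both IVF values for 2 of the 21 and below for 3, beside 18.3% and 15.1% of all tested genes.

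The tested neighbours of Mbnl2, Rap2a and Ipo5, had differences of -0.17 and -0.14. Those of Rbms1, Tank and Psmd14, had 0.01 and -0.07. Beside Tle3, Uaca, Rplp1 and Kif23 had 0.26, 0.09 and 0.05. For each of these 3 candidates the estimate was above that of every tested neighbour, with no test of the gap. They were picked for their large differences, so this order was likely beforehand. Epas1 (0.33 against -0.21 for Srbd1) also stood above its tested neighbour. So did Etv6 (0.42 against -0.13 for Bcl2l14 and 0.13 for Lrp6). Otx2 and Bbx had estimates below those of all their tested neighbours. Cd47, which encodes a membrane protein that restrains phagocytosis, was at 1.73 and 2.99 FPKM in the IVF libraries against 4.37 and 4.74 FPKM in the SCNT libraries, a difference of 0.75, above that of Bbx itself. Cd47 was the only 1 of the 21 tested neighbours with an unadjusted p under 0.05 (limma unadjusted p = 0.0273, adjusted p = 0.574). Among all tested genes the shares were 4.25% higher and 2.84% lower.

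**Figure D5:**
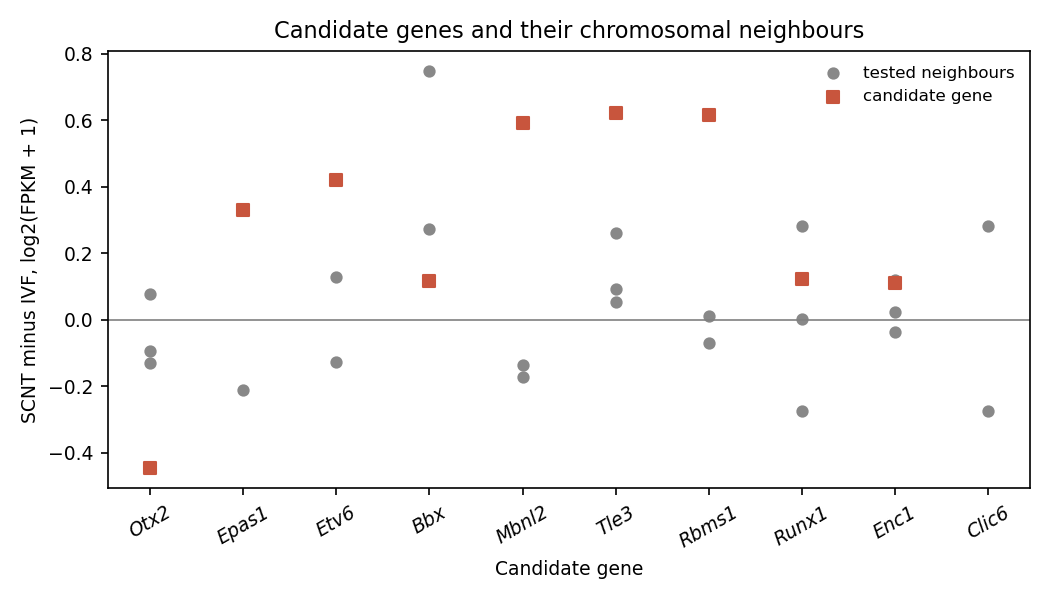
SCNT minus IVF difference on the log2(FPKM + 1) scale for each tested candidate gene (red squares) and for the tested genes among the 2 nearest protein-coding neighbours on each side (grey points). Epas1, Etv6, Mbnl2, Tle3 and Rbms1 stand above all of their tested neighbours, Cd47 stands above Bbx, and Clic6 has no square because it was not tested.

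Other genes tied to the mark were read beside the candidates. The 5 core H3K27me3-imprinted genes (Sfmbt2, Gab1, Slc38a4, Smoc1 and Phf17) had a median difference of 0.67, and both SCNT values lay above both IVF values for 5 of 5, beside 18.3% of all tested genes. Whether they differ from the wider candidates was not tested. Their summed level was 76.4 and 77.9 FPKM in IVF against 154 and 136 FPKM in SCNT. That of the 10 candidates was 98.7 and 73.7 FPKM in IVF against 114 and 107 FPKM in SCNT. Epas1 was the largest part of the candidates' sum. Enc1, at 20.0 and 1.38 FPKM in IVF, made most of its gap between the IVF libraries. The 13 genes that write, read or erase H3K27 methylation were all tested, and none had an unadjusted p under 0.05. The shares among all tested genes were 4.25% higher and 2.84% lower. Estimates were higher for 7 and lower for 6, with a median of 0.03. The catalytic subunit gene Ezh2 had a difference of 0.12 ± 0.31 and Eed, its essential partner, 0.03 ± 0.17. Both SCNT values lay above both IVF values for 2 of the 13 and below for 2, beside 18.3% and 15.1% of all tested genes. Those above were Ezh1, a paralogue of Ezh2 (3.69 and 3.77 FPKM in IVF against 4.202 and 4.148 FPKM in SCNT), and the demethylase gene Kdm6a (4.002 and 4.641 FPKM in IVF against 5.64 and 4.89 FPKM in SCNT). Those below were Suz12 (77.8 and 61.5 FPKM in IVF against 56.3 and 52.8 FPKM in SCNT) and the histone-binding subunit gene Rbbp7 (181 and 216 FPKM in IVF against 145 and 136 FPKM in SCNT).

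No marker of the blastocyst lineages passed an adjusted p under 0.05 with limma. At an unadjusted p under 0.05, 5 of 15 trophectoderm markers were higher in SCNT and 1 lower, 5 of 13 tested primitive endoderm markers were higher, and 0 of 12 tested markers of inner cell mass and epiblast were called, beside 4.25% higher and 2.84% lower among all tested genes. Of the 15 trophectoderm markers, both SCNT values lay above both IVF values for 7 and below for 1, beside 18.3% and 15.1% of all tested genes. Trophectoderm estimates were higher for 11 and lower for 4, with a median difference of 0.40. The summed level of the trophectoderm markers was 5235 and 4688 FPKM in IVF against 7354 and 5282 FPKM in SCNT. The keratin genes Krt8 and Krt18 held most of that sum, and the groups overlapped for both. Krt18 alone had 2647 and 1956 FPKM in IVF against 3979 and 2257 FPKM in SCNT. Elf5, a trophoblast transcription factor gene, had the smallest unadjusted p there, at 3.23 and 3.88 FPKM in IVF against 17.9 and 9.50 FPKM in SCNT. Of the 13 tested primitive endoderm markers, 7 were above and none below, with 8 estimates higher, 5 lower and a median of 0.30. The summed levels of all 15 listed primitive endoderm markers were 447 and 339 FPKM in IVF against 471 and 423 FPKM in SCNT. Of the 12 markers of inner cell mass and epiblast, 3 were above and none below, with 5 estimates higher, 7 lower and a median of -0.07. The part of these lineage markers in the differences of the candidate genes was not tested.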

How the data were processed

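RNA was measured in 2 IVF and 2 SCNT libraries, grouped by title. Per the labels' protocols, cDNA from lysed embryos was amplified (SMARTer Ultra Low Input kit), sheared and made into libraries (NEBNext Ultra DNA kit), so noise is larger for low genes. The deposited values are read here as FPKM. That unit is inferred, since per the file headers a column has a library name and no unit. TopHat2 2.0.14, Bowtie2 2.1.0, Cufflinks 2.2.1 and the mm9 build appear in the submitters' processing notes. Annotation, strand use, filters and scaling: not given in the sources used here.

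The 11039 genes averaging at least 1 FPKM were tested with limma 3.58.1 (R 4.3.3) on log2(FPKM + 1), group as the only term, with a mean-variance trend, Benjamini-Hochberg adjustment over all of them and a threshold of 0.05. The fit was run on simulated data with a common spread for all genes and changes larger than those of the candidates. That run does not show how the fit performs for the candidate genes. FPKM are not counts, so no count model was run. Among genes under 0.5 FPKM, the commonest ratio of IVF library 1 to SCNT library 1 was 1.04 (12.7% of 3592 genes). The ratio was 1.20 to IVF library 2 (3.4% of 3755 genes) and 1.13 to SCNT library 2 (4.3% of 3853 genes). Absolute depth remains unknown. The 10 genes and all lists were chosen with earlier results of these data known. By rule, the text names all 10 candidates and may name the most abundant relatives and listed genes with the smallest unadjusted p. Not every gene that the rule allows is named. Ezh2, Eed, Krt8, Krt18, Pou5f1, Twist2, Fap and S100a4 were named outside it. Mbnl1, Celf2, Otx1, Crx, Rbms3, Runx2, Runx3, Arnt, Slc2a1, Ldha, Tle1, Suz12, Rbbp7, Ezh1, Kdm6a and the neighbours other than Cd47 were named after their values were seen. Alternatives were other pseudocounts, filters, scalings and variance models, a replicate block, and each library left out.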

Additional observations from a re-analysis of the deposited data

How the results depend on the processing

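None of the candidate genes passed an adjusted p under 0.05 with limma in any of the alternatives run (14 for genes that stayed in every filter, 13 for Otx2, Etv6 and Runx1). An unadjusted p under 0.05 was found in 10 of 14 for Mbnl2, 11 of 14 for Rbms1 and 4 of 14 for Tle3. Directions held for all tested candidates except Bbx and Enc1. With a library left out, Bbx ran from -0.17 to 0.40 and Enc1 from -1.46 to 1.68. The number of candidates higher at an unadjusted p under 0.05 fell from 2 to between 0 and 1 with a library left out, where an arm has a single library that is assumed to vary like the others. The median of 0.33 became 0.16 on log2(FPKM + 5), 0.23 when no filter was applied, 0.46 when genes had to average 5 FPKM, and 0.30 to 0.46 with a library left out. The number of genes called over all rose from 14 to between 36 and 43 with a library left out, and was 9 with short RNA genes left out. The replicate numbers are shared by the groups, but nothing says that they mark a common batch. Deviations from the group means correlated at 0.31 between same-numbered libraries across 11039 genes, which are not independent. With the replicate block 20 genes were called in all and 0 candidates. With limma and this block, 2 candidates had an unadjusted p under 0.05 (Mbnl2 0.00650, Rbms1 0.00454). Among all 11039 tested genes 1832 did so with the block, against 783 in the main fit, so p-values were smaller with it in general. Without read counts, the precision of low genes such as Clic6 and Etv6 cannot be given.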
